A study of Mus musculus with 48 samples.

Results

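The genes described here are 9 markers used in the liver for bile duct cells and for the ductular reaction: Spp1, Krt7, Krt19, Krt23, Epcam, Sox9, Cd24a, Tff3 and Ly6d. They were taken by gene name from the array annotation, in which 11 probes carry 1 of these names. All 9 genes passed the filter on dim probes, among 20486 genes kept of 37074 gene names on the array. Each of 48 male mice gave 1 liver RNA sample and 1 one-colour Agilent array, with 6 mice in each group. Of the 8 groups, 4 were p110αhep−/− mice (LKO), which carried albumin-Cre+/− with p110α flox/flox to delete p110α, a catalytic subunit of the insulin-signalling kinase PI3K, in hepatocytes. The others were p110αhep+/+ mice (LWT), floxed littermates without Cre. The albumin promoter that drives Cre is active in hepatocytes and in the fetal progenitor they share with duct cells, and whether duct cells kept the gene was not measured here. From 12 weeks of age each genotype received a CTRL diet (D12450J) or a high-fat diet (HFD, D12492, 60% of calories from fat) for 12 weeks. Each diet group was either fed or fasted for 24 h, and all livers were taken at ZT16, 16 h after lights on. The groups therefore cross genotype, diet and feeding state, and the comparisons ask how each of these changes the level of the marker genes. Because the whole liver was sampled, fewer cells of a type and less RNA per cell cannot be told apart.

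Bile ducts are lined by cholangiocytes, epithelial cells that arise with hepatocytes from a common fetal progenitor and are set apart by Sox9, the keratins Krt7 and Krt19, the adhesion molecule Epcam and the secreted phosphoprotein osteopontin (Spp1). In injured or fatty liver, small ducts and cells with mixed hepatocyte and duct features can multiply, which is called the ductular reaction. None of these genes is a marker of duct cells alone: macrophages and stellate cells make osteopontin, mesothelial cells carry Krt7 and Krt19, red blood cells carry Cd24a, and hepatocytes can express Krt23 and Tff3.

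Between 50.1% and 57.4% of probes were well above background on an array, and no spot was saturated. Of the 48 arrays, 46 lay nearest to the mean of their own group over all genes kept. The other 2, fed CTRL-diet LWT replicate 2 and fed HFD LKO replicate 3, lay nearer to fed CTRL-diet LKO mice. Without both, no call reported here was lost. The Pik3ca probe gave no check of the deletion, since its level was higher in LKO than LWT fed mice, by 0.39 log2 units on the CTRL diet (adjusted p = 0.000403) and by 0.58 on the HFD (adjusted p = 2.73e-07). Several genes that define duct cells gave little signal in these whole livers. Of 23 further biliary genes on the array, 14 were kept. The bile duct chloride channel gene Cftr was not kept and was well above background on 25 of 48 arrays, and Sctr, Cldn4, Ehf, Elf3, Grhl2, Muc1 and Dmbt1 were not kept either, with at most 13.

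A gene was called changed when its adjusted p was at most 0.05 in limma and its fold change was over 1.5. Over the 4 comparisons of each kind, genotype gave 16 calls of 36, diet 10 and fasting 9. The 9 genes were chosen with earlier results of these data known. Setting their counts beside the share of all genes, here and below, is therefore a description and not a test. Between LKO and LWT mice, 3 of 9 were called in fed mice on the CTRL diet, against 3.73% of all genes tested, and 5 of 9 in fed mice on the HFD, against 6.23%. In fasted mice the counts were 3 of 9 on the CTRL diet, against 3.23%, and 5 of 9 on the HFD, against 6.56%. By adjusted p alone, 5, 7, 5 and 7 of the 9 passed in those 4 comparisons, against 21.7%, 33.0%, 24.9% and 36.9% of all genes. Those counts include Epcam in all 4 comparisons and Krt7 in all but fed CTRL-diet mice. Both passed the filter on dim probes only through LWT groups, so these counts are not independent of the filter. The HFD called 4 of 9 in fed LWT mice, against 3.71%, and 2 of 9 in fed LKO mice, against 2.34%. In fasted mice it called 3 of 9 in LWT, against 2.82%, and 1 of 9 in LKO, against 1.89%. Fasting called 2 of 9 in LWT and 4 of 9 in LKO mice on the CTRL diet, against 5.46% and 7.08%, and 1 of 9 in LWT and 2 of 9 in LKO mice on the HFD, against 4.72% and 5.90%. The 9 genes did not move as a group: in both HFD comparisons of genotype, 3 were called lower (Spp1, Ly6d and Krt19) and 2 higher (Tff3 and Krt23) in LKO mice. The median log2 difference of the 9 genes was −0.46 in fed HFD mice, against 0.03 over all genes, and −0.35 in fasted HFD mice, against 0.03. These medians are the values of Epcam when fed and of Krt7 when fasted, both near background in LKO mice. They therefore give no measured size, and no conclusion is drawn from them.

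**Figure D1:**
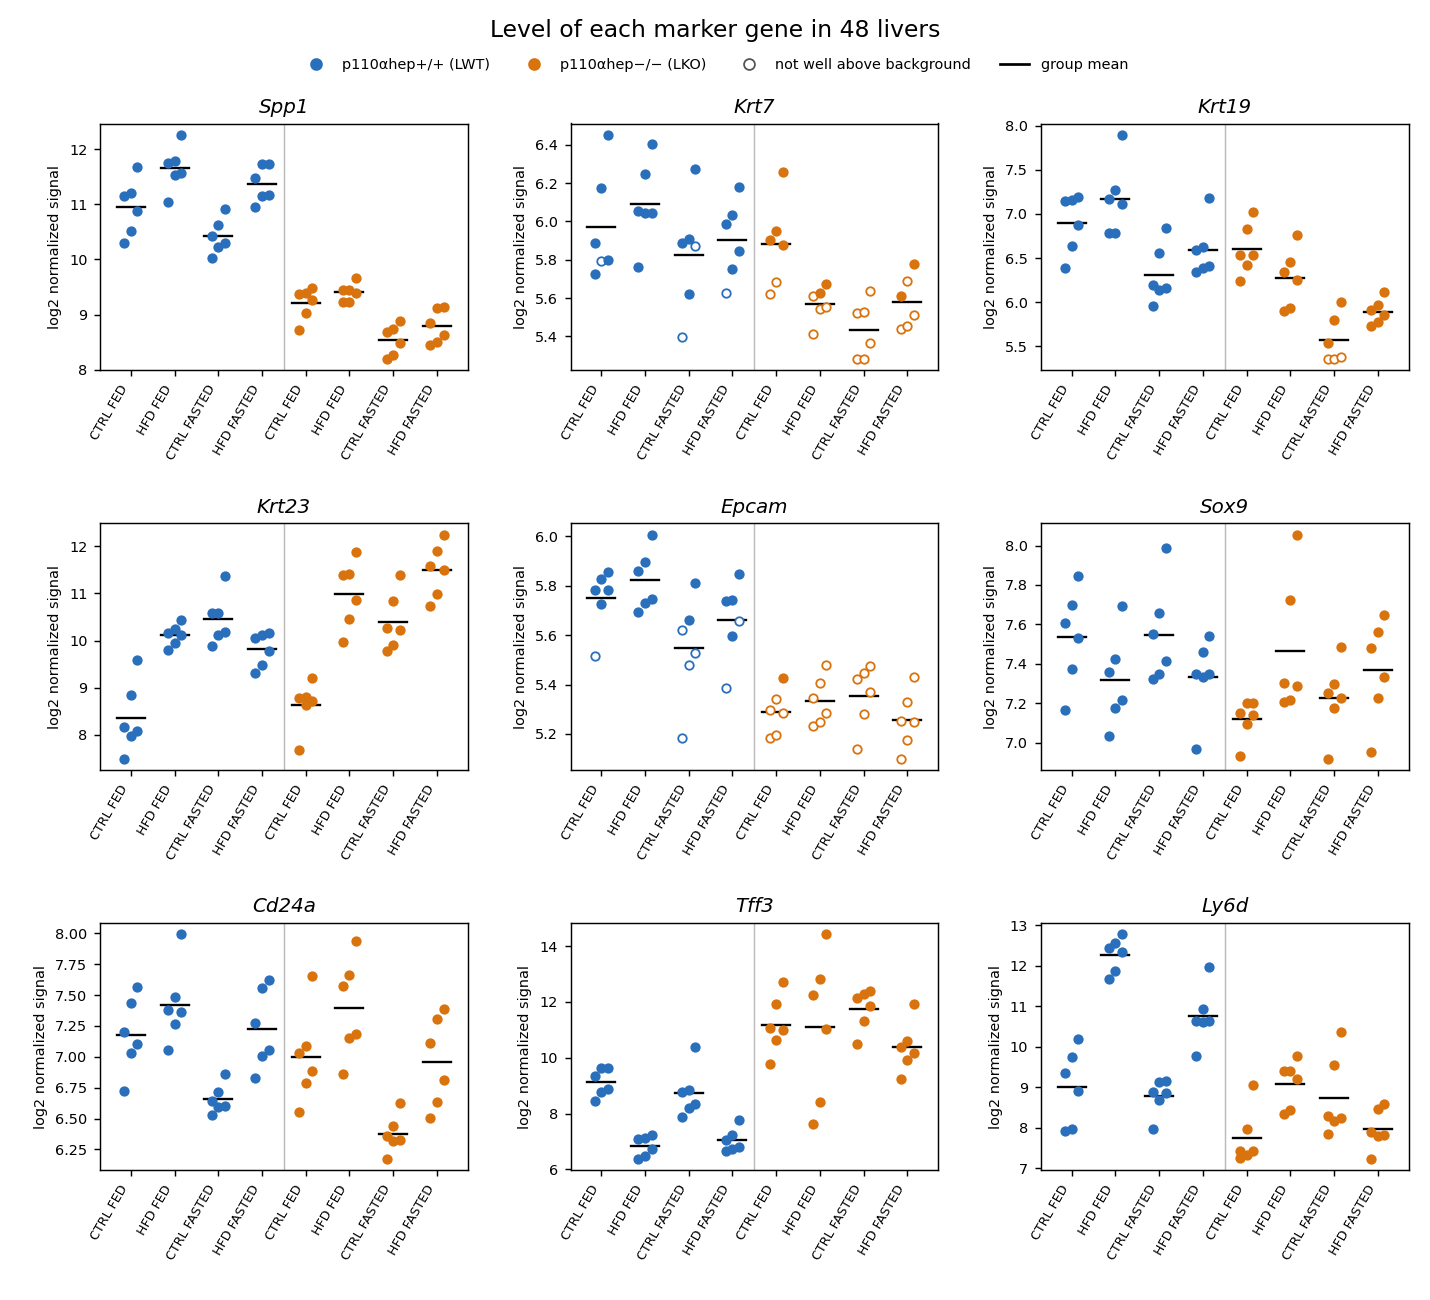
Log2 normalized signal of the brightest probe of each marker gene in each of 48 livers, with LWT groups on the left (blue) and LKO groups on the right (orange) of each panel; bars are means of 6 mice and open circles are arrays on which the probe was not well above background. Spp1 separates the genotypes completely, Ly6d is highest in LWT mice on the HFD, Tff3 is higher in LKO mice, and most Epcam values of LKO mice are open circles.

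**Figure D2:**
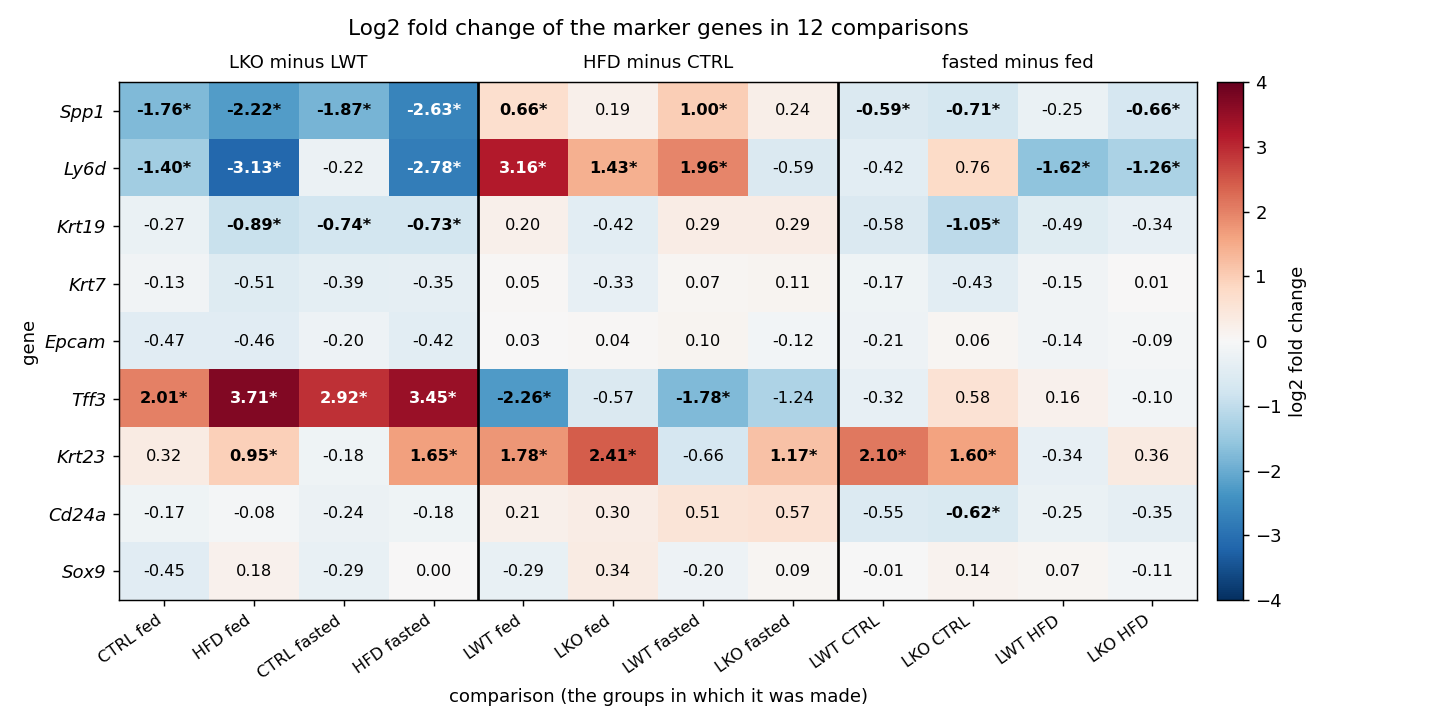
Log2 fold change of each marker gene (rows) in 4 comparisons of genotype, 4 of diet and 4 of feeding state (columns); bold values with an asterisk were called (adjusted p at most 0.05 and fold change over 1.5). Spp1 is called lower and Tff3 higher in LKO mice in all 4 genotype columns, and Krt23 is raised by the HFD in fed mice and by fasting on the CTRL diet.

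Spp1 encodes osteopontin, a secreted phosphoprotein of duct cells that is also made by macrophages and stellate cells. Its probe lies at chr5:104869788-104869847 (mm9, plus strand). In fed mice on the CTRL diet its log2 signal ran from 10.29 to 11.67 in LWT (median 11.01) and from 8.71 to 9.48 in LKO mice (median 9.32). On the HFD it ran from 11.04 to 12.27 in fed LWT (median 11.66) and from 9.23 to 9.66 in fed LKO mice (median 9.42). Every LKO mouse lay below every LWT mouse of the same diet. The level was 3.38-fold lower in LKO mice on the CTRL diet (log2 difference −1.76 ± 0.18 SE, adjusted p = 1.17e-09) and 4.67-fold lower on the HFD (−2.22 ± 0.18, adjusted p = 6.73e-13).

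Fasted mice showed the same order. Spp1 ran from 10.02 to 10.92 in LWT mice (median 10.37) and from 8.19 to 8.87 in LKO mice (median 8.59) on the CTRL diet, and from 10.95 to 11.73 (median 11.33) and 8.45 to 9.14 (median 8.74) on the HFD. The difference was 3.66-fold on the CTRL diet (−1.87 ± 0.17, adjusted p = 5.8e-11) and 6.20-fold on the HFD (−2.63 ± 0.19, adjusted p = 1.02e-14). The lowest group mean among LWT mice and the highest among LKO mice are neighbours in the order of the 8 groups, and these were the only neighbouring groups of Spp1 whose mice did not overlap.

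The HFD raised Spp1 in LWT mice, by 1.58-fold when fed (0.66 ± 0.17, adjusted p = 0.00428) and 2.00-fold when fasted (1.00 ± 0.17, adjusted p = 8.26e-05). In LKO mice the difference was 0.19 (95% interval −0.19 to 0.57) when fed and 0.24 (−0.14 to 0.61) when fasted, neither called. The diet responses of the genotypes were compared directly, and that difference did not pass, at −0.47 in fed mice (adjusted p = 0.341) and −0.76 in fasted mice (adjusted p = 0.0705). Fasting lowered Spp1 by 1.51-fold in LWT mice on the CTRL diet (adjusted p = 0.00805), by 1.63-fold in LKO mice on the CTRL diet (adjusted p = 0.00164) and by 1.58-fold in LKO mice on the HFD (adjusted p = 0.00938). The first of these lay so close to the fold threshold that it was lost without any 1 of 6 arrays (LWT CTRL-diet fed replicate 1, 4 or 5, or fasted replicate 1, 3 or 6), with the log2 difference then as small as −0.44. In fed LWT mice the HFD call was lost without HFD replicate 1 or CTRL-diet replicate 6, where the log2 difference fell to 0.55 at the lowest. The fasting call in LKO mice on the HFD was lost without replicate 2 of either group, with a log2 difference as small as −0.58.

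Macrophage and stellate cell genes moved with Spp1 in some of these comparisons and not in others. In fed HFD mice 6 of 10 macrophage genes were called lower in LKO, with a median of −0.68, while in fed CTRL-diet mice 1 of 10 was, with a median of −0.09. Spp1 was called lower in both. In fasted CTRL-diet mice none of the 10 macrophage genes was called (median 0.22) and Spp1 was 3.66-fold lower, and in fasted HFD mice, where Spp1 was 6.20-fold lower, 5 of 10 were called lower (median −0.55). Summed over the 10 genes, the log2 macrophage signal of fed mice ran from 13.42 to 14 in LWT and from 13.43 to 13.83 in LKO on the CTRL diet, and from 13.38 to 13.98 and 13.52 to 14.24 on the HFD. In fasted mice it ran from 13.05 to 13.57 in LWT and from 13.37 to 13.84 in LKO on the CTRL diet, and from 13.41 to 14.13 and 13.31 to 13.7 on the HFD. The ranges of this sum, which the brightest genes weigh most, overlapped between the genotypes in each pair.

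Of 9 stellate cell and fibroblast genes, 1 was called lower in LKO mice when fed on the CTRL diet, 3 when fed on the HFD, 2 when fasted on the CTRL diet and 6 when fasted on the HFD. In fed mice their summed log2 signal ran from 12.71 to 13.4 in LWT and from 12.88 to 13.19 in LKO on the CTRL diet, and from 13.47 to 14.13 and 12.9 to 13.54 on the HFD. In fasted mice it ran from 12.48 to 12.95 in LWT and from 12.21 to 12.56 in LKO on the CTRL diet, and from 12.96 to 13.97 and 12.57 to 12.85 on the HFD, where the genotypes did not overlap.

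Both lists also moved with Spp1 by diet, and the stellate list by fasting. In LWT mice, where the HFD raised Spp1, 5 of 10 macrophage genes were called higher when fed (median 0.42) and 5 of 10 when fasted (median 0.69), and 3 and 5 of 9 stellate cell and fibroblast genes were (medians 0.38 and 0.61). In LKO mice none of either list was called higher by the HFD in either state. Fasting lowered 4 of 9 stellate cell and fibroblast genes in LWT mice on the CTRL diet (median −0.49), 4 of 9 in LKO mice on the CTRL diet (median −0.41) and 3 of 9 in LKO mice on the HFD (median −0.53), the comparisons in which Spp1 was called, and 0 of 9 in LWT mice on the HFD (median −0.05). No macrophage gene was called by fasting. The part of macrophages and stellate cells in the Spp1 differences was not tested.

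RefSeq promoter sequences were given for 4 of the 9 genes (Spp1, Krt7, Krt23 and Epcam), and those of Spp1 and Krt23 are shown because these genes changed most among the 4. Of 7 short strings searched on both strands, the TATA box string TATAAA was found in 12.4% of 32851 promoters of the same length. Matches were counted at any distance from the start of transcription, and whether any of them acts was not tested. The string GTAAACA of FOXO factors was found in 3.17%, TGGGAA of the Notch effector RBPJ in 21.6%, GGAATG of the YAP partner TEAD in 12.6% and ACAAT of SOX factors in 27.7%. The AP-1 string TGANTCA was found in 6.75% and the E-box CACGTG in 6.02%. Below are the 250 bases before the start of transcription in GRCm38.p6, on the strand of the gene, with matches in capitals, for Spp1 at chr5:104434861-104435110 (plus strand) and Krt23 at chr11:99493121-99493370 (minus strand).
Spp1: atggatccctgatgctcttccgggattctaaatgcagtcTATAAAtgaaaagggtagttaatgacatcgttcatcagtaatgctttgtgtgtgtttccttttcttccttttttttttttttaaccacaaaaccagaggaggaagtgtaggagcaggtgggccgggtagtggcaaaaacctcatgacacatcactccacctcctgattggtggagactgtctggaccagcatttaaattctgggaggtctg
Krt23: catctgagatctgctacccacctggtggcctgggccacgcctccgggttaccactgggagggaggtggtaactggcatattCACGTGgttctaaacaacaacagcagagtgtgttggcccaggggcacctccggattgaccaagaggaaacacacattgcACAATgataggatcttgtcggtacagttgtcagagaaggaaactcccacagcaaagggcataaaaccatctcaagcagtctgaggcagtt
The Spp1 window held TATAAA, starting 211 bases before the start. The Krt23 window held CACGTG, starting 169 bases before it, and ACAAT, starting 90 bases before it. The second Spp1 window in the table and the windows of Krt7 and Epcam held none of the 7 strings.

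Tff3 encodes trefoil factor 3, a small peptide that mucus-producing epithelia secrete and that protects and repairs them. It was the only one of the 9 genes called higher in LKO mice in all 4 comparisons of genotype. Its probe lies at chr17:31262279-31262338 (mm9, minus strand). In fed mice on the CTRL diet the log2 signal ran from 8.46 to 9.65 in LWT (median 9.12) and from 9.77 to 12.71 in LKO mice (median 11.04). On the HFD it ran from 6.38 to 7.22 in fed LWT (median 6.91) and from 7.61 to 14.42 in fed LKO mice (median 11.64). The genotypes did not overlap in either diet, but the fed HFD LKO mice covered the widest range of any group and gene, with 2 mice at 7.61 and 8.40 and the other 4 at 11.04 or above.

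The difference was 4.03-fold in fed CTRL-diet mice (2.01 ± 0.57, adjusted p = 0.00899) and 13.05-fold in fed HFD mice (3.71 ± 0.57, adjusted p = 2.08e-06). The highest value, 14.42, belonged to fed HFD LKO replicate 3, 1 of the 2 arrays that lay nearer to another group, and without both of these arrays the fed HFD difference was 3.44 (adjusted p = 5.99e-06). Leaving out single arrays moved it between 3.26 and 4.45. Fasted mice ran from 7.88 to 10.39 in LWT (median 8.56) and from 10.51 to 12.40 in LKO (median 12.01) on the CTRL diet, and from 6.66 to 7.77 (median 6.92) and 9.25 to 11.94 (median 10.27) on the HFD. Here too no LKO mouse fell to the level of an LWT mouse of the same diet, and the difference was 7.55-fold (adjusted p = 8.45e-05) and 10.9-fold (adjusted p = 1.11e-05).

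The HFD lowered Tff3 in LWT mice, by 4.79-fold when fed (−2.26 ± 0.54, adjusted p = 0.00197) and by 3.42-fold when fasted (−1.78 ± 0.55, adjusted p = 0.0227). Mice on the 2 diets did not overlap in either state. Neither call was made within a single washing batch, where the fed difference was −2.33 (adjusted p = 0.064) and −2.17 (adjusted p = 0.108) and the fasted one −2.04 (adjusted p = 0.125) and −1.43 (adjusted p = 0.288). In fasted mice this call was lost without CTRL-diet replicate 4 or HFD replicate 4, with a highest adjusted p of 0.0805. In LKO mice the diet difference was −0.57 (95% interval −1.77 to 0.64) when fed and −1.24 (−2.43 to −0.06) when fasted, neither called. The direct test of the difference between genotypes gave 1.69 in fed mice (adjusted p = 0.263) and 0.53 in fasted mice (adjusted p = 0.76), so a genotype difference in the diet response was not shown. Fasting gave no call for Tff3, with log2 differences from −0.32 to 0.58. Of the 4 goblet cell and gallbladder genes Muc2, Fcgbp, Agr2 and Clca1, none was kept, and each was well above background on at most 4 of 48 arrays. The part of such cells in the Tff3 difference was not tested.

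Ly6d encodes a small surface protein of the Ly6 family, held in the membrane by a lipid anchor and best known on lymphoid progenitors and squamous epithelium. In fed LWT mice it showed the largest response to the HFD among the 9 genes. Its probe lies at chr15:74592551-74592610 (mm9, minus strand). In fed LWT mice the log2 signal ran from 7.93 to 10.19 on the CTRL diet (median 9.13) and from 11.66 to 12.77 on the HFD (median 12.38). In fed LKO mice it ran from 7.27 to 9.07 (median 7.43) and from 8.34 to 9.77 (median 9.30). LWT mice on the 2 diets did not overlap, whereas LKO mice did. The HFD raised Ly6d by 8.93-fold in fed LWT mice (3.16 ± 0.34, adjusted p = 5.89e-09) and by 2.70-fold in fed LKO mice (1.43 ± 0.38, adjusted p = 0.00822).

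In fasted mice Ly6d ran from 7.99 to 9.15 on the CTRL diet (median 8.88) and from 9.77 to 11.97 on the HFD (median 10.64) in LWT, and from 7.84 to 10.38 (median 8.27) and 7.24 to 8.58 (median 7.86) in LKO. Only in LWT mice did the HFD group stand clear above the CTRL group. The HFD raised it by 3.90-fold in fasted LWT mice (1.96 ± 0.35, adjusted p = 0.000103), and in fasted LKO mice the difference was −0.59 (95% interval −1.34 to 0.16). The diet response of the genotypes differed in fasted mice, by −2.55 ± 0.51 (adjusted p = 0.0025). In that test 2 of 9 genes were called (Ly6d and Krt23), against 1.88% of all genes. In fed mice the same test gave −1.73 ± 0.51 (adjusted p = 0.0528) and was not called for Ly6d, with 1 of 9 genes called (Sox9), against 1.40%. Most alternative settings also left the fed Ly6d difference uncalled. It was called with normexp background correction (−1.79, adjusted p = 0.0283), with median scaling (−1.72, adjusted p = 0.0492) and with only probes well above background on all arrays (−1.71, adjusted p = 0.0469). Within the washing batches, each with 3 mice per group, the fasted difference was −2.87 (adjusted p = 0.0986) and −2.0 (adjusted p = 0.162), in the same direction and not called in either. The fed difference was −1.80 (adjusted p = 0.215) and −1.47 (adjusted p = 0.668), likewise not called.

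The genotypes themselves differed most on the HFD. Ly6d was 8.75-fold lower in LKO than LWT mice when fed (−3.13 ± 0.36, adjusted p = 4.45e-09) and 6.85-fold lower when fasted (−2.78 ± 0.37, adjusted p = 1.47e-07), with no overlap between the genotypes. On the CTRL diet it was 2.65-fold lower in fed LKO mice (adjusted p = 0.00391), with overlap, and in fasted mice the difference was −0.22 (95% interval −0.92 to 0.48). Fasting lowered Ly6d on the HFD, by 3.06-fold in LWT (adjusted p = 0.000263) and 2.40-fold in LKO mice (adjusted p = 0.0132). The LKO call was lost without fasted replicate 2, at an adjusted p of 0.0517. On the CTRL diet the fasting difference was −0.42 in LWT and 0.76 in LKO mice, neither called. In LKO mice the response to fasting differed between diets by −2.02 ± 0.53 (adjusted p = 0.012). Within washing batches 1 and 2 it was −2.35 (adjusted p = 0.0594) and −1.49 (adjusted p = 0.403), not called in either. No other gene of the 9 was called in that test, against 2.90% of all genes. Of 5 B and T lymphocyte genes, Cd79a was not kept and none of the other 4 was called in any comparison. Their summed log2 signal ran from 9.73 to 10.08 in fed CTRL-diet and from 9.40 to 10.62 in fed HFD LWT mice, and from 9.64 to 10.49 and 9.63 to 9.89 in the LKO mice. Their part in the Ly6d difference was not tested.

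**Figure D3:**
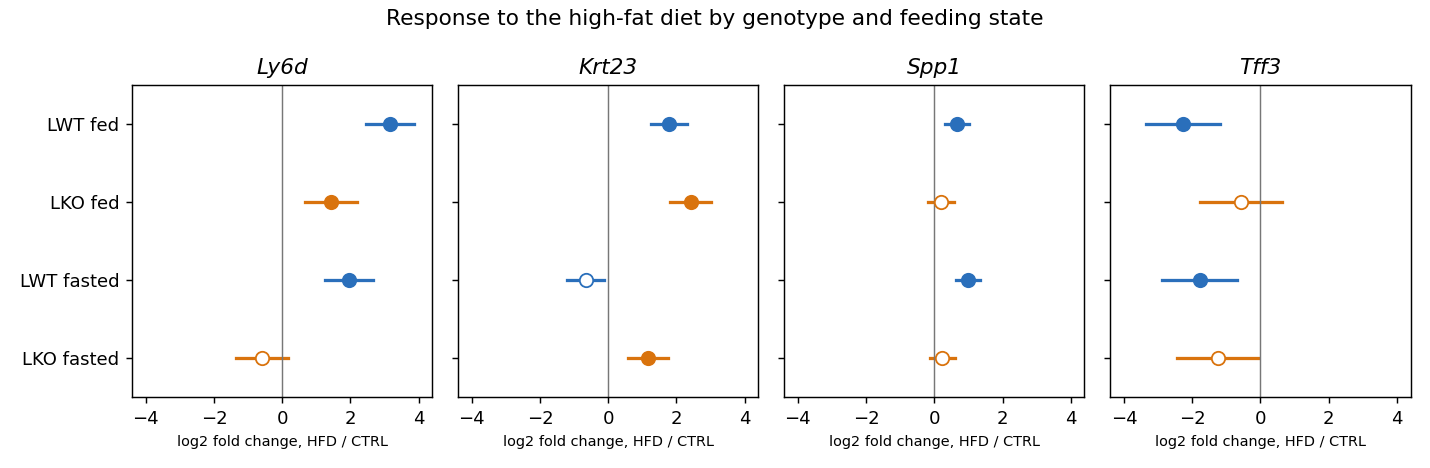
Log2 fold change of HFD over CTRL diet for Ly6d, Krt23, Spp1 and Tff3 in fed and fasted LWT (blue) and LKO (orange) mice, with 95% intervals from the limma fit; filled circles were called. The Ly6d response runs from 3.16 in fed LWT to −0.59 in fasted LKO mice, and that of Krt23 from 2.41 in fed LKO to −0.66 in fasted LWT mice.

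Krt23 encodes an acidic (type I) keratin, and its probe was well above background on all 48 arrays. Its probe lies at chr11:99339393-99339452 (mm9, minus strand). Its lowest medians were those of the fed mice on the CTRL diet. Fed CTRL-diet mice ran from 7.49 to 9.58 in LWT (median 8.12) and from 7.67 to 9.20 in LKO (median 8.75). Fed HFD mice ran from 9.80 to 10.43 in LWT (median 10.14) and from 9.98 to 11.87 in LKO (median 11.12). Neither genotype showed overlap between the diets. The HFD raised Krt23 by 3.43-fold in fed LWT (1.78 ± 0.26, adjusted p = 2.93e-06) and 5.32-fold in fed LKO mice (2.41 ± 0.29, adjusted p = 1.53e-07).

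Fasting also raised Krt23 on the CTRL diet. Fasted CTRL-diet mice ran from 9.89 to 11.37 in LWT (median 10.39) and from 9.78 to 11.38 in LKO (median 10.24), and lay above every fed mouse of their genotype and diet. The rise was 4.30-fold in LWT (2.10 ± 0.27, adjusted p = 5.97e-08) and 3.03-fold in LKO mice (1.60 ± 0.28, adjusted p = 1.09e-05). On the HFD, fasted mice ran from 9.32 to 10.17 in LWT (median 9.91) and from 10.74 to 12.25 in LKO (median 11.54), and the fasting difference was −0.34 and 0.36, neither called. The response to fasting differed between diets in LWT mice, by −2.44 ± 0.38 (adjusted p = 0.000137). No other gene of the 9 was called in that test, against 0.888% of all genes. In LKO mice the same test gave −1.24 ± 0.41 (adjusted p = 0.053), not called, and most alternative settings gave no call either. It was called with the replicate block (−1.27, adjusted p = 0.0277), without the 2 arrays nearer to another group (adjusted p = 0.0425) and with only probes well above background on all arrays (adjusted p = 0.0468). Within washing batches 1 and 2 the LWT difference was −1.87 (adjusted p = 0.27) and −2.94 (adjusted p = 0.00635). The LKO difference was −1.36 (adjusted p = 0.173) and −0.92 (adjusted p = 0.477), not called in either.

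Between the genotypes, Krt23 was called on the HFD in both feeding states and on the CTRL diet in neither. On the HFD it was 1.93-fold higher in fed LKO than fed LWT mice (0.95 ± 0.28, adjusted p = 0.0075), with overlap, and 3.13-fold higher in fasted LKO mice (1.65 ± 0.29, adjusted p = 1.64e-05), without overlap. On the CTRL diet the difference was 0.32 (95% interval −0.24 to 0.88) when fed and −0.18 (−0.73 to 0.36) when fasted. The fed HFD difference was 1.37 in washing batch 1 alone (adjusted p = 0.0137) and 0.37 in washing batch 2 alone (adjusted p = 0.541), where it was not called. Between the genotypes, the diet response of fed mice differed by 0.63 (adjusted p = 0.425), which was not called. In fasted mice the HFD raised Krt23 by 2.25-fold in LKO (1.17 ± 0.29, adjusted p = 0.00547), while in LWT mice the difference was −0.66 (adjusted p = 0.0881), and this response differed between genotypes by 1.83 ± 0.39 (adjusted p = 0.00444). The LKO rise was 1.29 in washing batch 1 (adjusted p = 0.121) and 1.16 in batch 2 (adjusted p = 0.0591), not called in either. Washing batches 1 and 2 gave 1.97 (adjusted p = 0.14) and 1.97 (adjusted p = 0.0511) for that difference.

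Krt19, an acidic keratin of simple epithelia and the standard duct marker in liver, was lower in LKO mice in 3 of the 4 comparisons of genotype. Its probe lies at chr11:100002392-100002451 (mm9, minus strand) and gave low signals. In fed HFD mice it ran from 6.78 to 7.90 in LWT (median 7.14) and from 5.91 to 6.76 in LKO (median 6.29), with no overlap. In fasted HFD mice it ran from 6.35 to 7.18 in LWT (median 6.50) and from 5.73 to 6.11 in LKO (median 5.88), again with no overlap. The difference was 1.85-fold in fed HFD mice (−0.89 ± 0.18, adjusted p = 0.000117), 1.66-fold in fasted HFD mice (−0.73 ± 0.18, adjusted p = 0.00136) and 1.67-fold in fasted CTRL-diet mice (−0.74 ± 0.17, adjusted p = 0.00102). In the last comparison the probe was well above background on 3 of the 6 LKO arrays, and over the alternative settings the difference ran from −1.63 to −0.51, with the call lost under normexp background correction and in washing batch 2 alone. In fed CTRL-diet mice it was −0.27 (95% interval −0.62 to 0.09). The fasted HFD call was lost without LWT replicate 2, the highest mouse of its group at 7.18, where the difference was −0.58.

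Fasting lowered Krt19 by 2.07-fold in LKO mice on the CTRL diet (−1.05 ± 0.17, adjusted p = 5.4e-06), from between 6.24 and 7.03 to between 5.36 and 6.00, without overlap. In the fasted LKO group the probe was well above background on 3 of 6 arrays, so that these low values lie near the limit of the array, and the difference ran from −2.11 to −0.73 over the alternative settings, with the call kept. In LWT mice on the CTRL diet the fasting difference was −0.58 (adjusted p = 0.00749), a fold of 1.497 that lay just under the threshold. It passed the threshold under 7 of the alternative settings, at −0.88 to −0.59. The test of a different fasting response in the genotypes on that diet gave −0.47 (95% interval −0.96 to 0.02, adjusted p = 0.302), not called. In the fasting comparison of LKO mice on the CTRL diet, 1 of the 3 mesothelial genes kept was also called lower, Msln (−1.51, adjusted p = 0.0404), with a median of −0.72, and their summed log2 signal ran from 7.85 to 9.09 in fed and from 6.85 to 8.59 in fasted mice. As given above, 4 of 9 stellate cell and fibroblast genes were lower there. The part of these cells in the Krt19 fall was not tested. The HFD gave no call for Krt19, with log2 differences between −0.42 and 0.29. Under 2 alternative settings it was called in LKO mice, in opposite directions. With signals processed by the scanner software and scaled to the 75th percentile it was higher in fasted mice (0.92, adjusted p = 0.0374). Within washing batch 1 alone it was lower in fed mice (−0.87, adjusted p = 0.0226), and batch 2 gave −0.04 (adjusted p = 0.976).

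Krt7, the basic keratin that pairs with Krt19 in duct cells, and Epcam, an adhesion molecule of duct cells and liver progenitors, were both dim. Their probes lie at chr15:101253718-101253777 and chr17:88048972-88049800 (mm9, plus strand), the Epcam probe spanning an intron. Krt7 was well above background on 28 of 48 arrays and Epcam on 18. Krt7 passed the filter on dim probes through LWT groups only, and Epcam through the fed LWT groups only. Their tests between the genotypes are therefore not independent of that filter, and their adjusted p are given as description. Neither reached the fold threshold in any comparison, and both passed the adjusted p in several. In fed HFD mice Krt7 ran from 5.76 to 6.40 in LWT (median 6.05) and from 5.41 to 5.67 in LKO (median 5.58), with no overlap (adjusted p = 0.00137). There 2 of the 6 LKO arrays were well above background, so the size of the difference was not measured. In fasted HFD mice Krt7 also passed the adjusted p (0.0301), again with 2 of 6 LKO arrays well above background and no measured size. In fed CTRL-diet mice its log2 difference was −0.13 (95% interval −0.38 to 0.12). No fasted CTRL-diet LKO array was well above background, so that Krt7 was at least 1.28-fold higher in the LWT mice of that diet and state (adjusted p = 0.0142), of which 4 of 6 arrays were well above background and whose range overlapped that of the LKO mice. A fold given as at least is taken against the higher of the probe's own signal and the lowest signal well above background on each array of the dim group.

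Epcam signals of the genotypes did not overlap in fed mice, but those of LKO mice lay near background. On the CTRL diet it ran from 5.52 to 5.86 in LWT (median 5.78) and from 5.18 to 5.43 in LKO (median 5.29), and on the HFD from 5.69 to 6.01 (median 5.80) and 5.23 to 5.48 (median 5.32). The probe was well above background on 5 and 6 of 6 arrays of fed LWT mice on the CTRL diet and HFD, against 1 and 0 of 6 in fed LKO mice. On the CTRL diet Epcam passed the adjusted p in limma (1e-05), but with 1 LKO array well above background the size of the difference was not measured. With no LKO array above background, Epcam was at least 1.34-fold higher in LWT than LKO mice when fed on the HFD (adjusted p = 5e-06). In fasted mice the genotypes overlapped, and again no LKO array was well above background. On the HFD, with 4 of 6 LWT arrays well above background, the fold was at least 1.24 (adjusted p = 4.12e-05). On the CTRL diet only 2 of 6 LWT arrays were well above background, so that most arrays of both groups give no measured level, and the signal ran from 5.18 to 5.81 in LWT and from 5.14 to 5.48 in LKO mice. With signals processed by the scanner software and scaled to the 75th percentile, Epcam was called lower in LKO mice in all 4 comparisons and Krt7 in 3. That setting changed the background and the scaling together, and signals so near background give no measured size.

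Cd24a encodes a heavily glycosylated, lipid-anchored surface protein carried by duct cells, immature blood cells and red cells. Between the genotypes its log2 difference was between −0.24 and −0.08, with no call. Its brightest probe lies at chr10:43303932-43303991 and the second at chr10:43303706-43303765 (mm9, plus strand). On the CTRL diet it ran from 6.72 to 7.57 in fed LWT (median 7.16) and from 6.53 to 6.86 in fasted LWT mice (median 6.62), and from 6.55 to 7.65 (median 6.96) and 6.17 to 6.62 (median 6.34) in LKO mice. Fasted mice lay at or below the low end of the fed range in both genotypes, with overlap. The fall was 1.54-fold in LKO mice (−0.62 ± 0.16, adjusted p = 0.00203) and 1.46-fold in LWT mice (−0.55 ± 0.16, adjusted p = 0.00622), of which only the first passed the fold threshold. The LKO call was lost without fed replicate 5, where the difference was −0.51. On the second probe the fasting difference was −0.57 in LKO and −0.60 in LWT mice, of which only the LWT one passed the fold threshold.

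In fasted mice the HFD difference of Cd24a was 0.51 in LWT and 0.57 in LKO mice (adjusted p = 0.0206 and 0.021), under the fold threshold, and 0.60 and 0.64 on the second probe, over it. The 3 genes whose levels correlated best with Cd24a over the 48 arrays were Bpgm, which makes the red cell metabolite that lowers the oxygen affinity of haemoglobin (r = 0.787), and the globin genes Hba-a2 (r = 0.78) and Hba-a1 (r = 0.778). Fasting lowered Hba-a1 by 0.87 log2 units in LKO mice on the CTRL diet (adjusted p = 0.00104), and in LWT mice its difference was −0.58 (adjusted p = 0.0269), under the fold threshold. Hba-a2 was lowered by 0.89 in LKO (adjusted p = 0.000769) and by 0.62 in LWT mice (adjusted p = 0.0185). By the HFD in fasted mice, Hba-a1 was 0.79 higher in LKO (adjusted p = 0.0135), and its difference in LWT was 0.54 (adjusted p = 0.0635), not called. The HFD raised Hba-a2 by 0.83 in fasted LKO mice (adjusted p = 0.0096), and in fasted LWT mice its difference was 0.56 (adjusted p = 0.0554), not called. Bpgm stayed under the fold threshold in all comparisons of genotype, diet and fasting, so it was not called. On the CTRL diet its fasting difference in limma was −0.45 in LKO (adjusted p = 0.0012) and −0.31 in LWT mice (adjusted p = 0.0249). By the HFD in fasted mice it was 0.46 higher in LKO (adjusted p = 0.00628) and 0.37 higher in LWT (adjusted p = 0.0164). The part of blood in the Cd24a difference was not tested.

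Sox9 encodes the transcription factor that marks duct cells and their progenitors. It varied little, with group means between 7.12 and 7.55 on its brightest probe, at chr11:112647560-112647619 (mm9, plus strand). Fed CTRL-diet mice ran from 7.16 to 7.85 in LWT (median 7.57) and from 6.93 to 7.20 in LKO (median 7.14). The LKO mice lay at the low end, with overlap, and the difference was −0.45 ± 0.13 (adjusted p = 0.0103), a fold of 1.36. The second probe gave a smaller difference there, −0.15 (adjusted p = 0.321). On the HFD, fed mice ran from 7.03 to 7.69 in LWT (median 7.29) and from 7.21 to 8.06 in LKO (median 7.29). The response to the HFD differed between genotypes in fed mice by 0.63 ± 0.18, at an adjusted p of 0.0492, just inside the threshold. It was lost without any 1 of 33 arrays, with a highest adjusted p of 0.114, and on the second probe, at chr11:112646642-112646701, the same difference was 0.34 (adjusted p = 0.187). No comparison of genotype, diet or fasting was called for Sox9.

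Differences in the response to fasting between genotypes gave no call. In limma, 0 of 9 genes were called on the CTRL diet, against 1.32% of all genes, with 2 at an unadjusted p under 0.05, and 0 of 9 on the HFD, against 1.40%, with 0 at an unadjusted p under 0.05.

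Within the washing batches, each with 3 mice per group, fewer calls were made, and no call turned its direction. Genotype gave 15 calls in batch 1 and 11 in batch 2, diet 7 and 5, fasting 8 and 6, and the interactions 0 and 1. The 4 genotype calls of Spp1 held in both batches, with a highest adjusted p of 0.000185. The Tff3 difference of fed CTRL-diet mice was 1.88 (adjusted p = 0.14) and 2.43 (adjusted p = 0.0718), and that of Ly6d −1.47 (adjusted p = 0.0677) and −1.31 (adjusted p = 0.105), neither called in either batch. The diet calls of Spp1 in fed LWT mice, of Tff3 in LWT mice and of Krt23 in fasted LKO mice, and the fasting calls of Spp1 in LWT mice on the CTRL diet and of Spp1 and Ly6d in LKO mice on the HFD, were likewise made in neither batch alone. Made in 1 batch only were the HFD calls of Krt23 in fed LWT and Ly6d in fed LKO mice, the genotype calls of Krt23 in fed HFD and Krt19 in fasted mice, and the fasting calls of Spp1 and Cd24a in LKO mice on the CTRL diet.

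Of the 14 other biliary genes kept, at most 4 were called in a comparison of genotype. In LKO mice 1 was called lower when fed on the CTRL diet, 3 when fed on the HFD, 2 when fasted on the CTRL diet and 3 when fasted on the HFD, where 1 was also higher. Their median log2 difference was −0.04, −0.15, −0.24 and −0.18, against 0.02, 0.03, 0.01 and 0.03 over all genes. Slc10a2, the bile salt carrier that cholangiocytes share with the ileum, was lower in LKO mice in all 4 comparisons, by 1.08 log2 units when fed on the CTRL diet (adjusted p = 0.00091) and by 1.66 when fed on the HFD (adjusted p = 7.29e-07), then by 1.18 (adjusted p = 0.000156) and 1.87 (adjusted p = 1.25e-07) when fasted. Aqp1, the water channel of duct cells that vessels also carry, was higher in fasted HFD LKO mice by 0.65 (adjusted p = 6.77e-05) and was lowered by the HFD in fed LKO mice, by 0.61 (adjusted p = 0.000745). Cys1, a gene of the primary cilium, was lower in fed HFD LKO mice by 0.97 (adjusted p = 9.03e-07). The HFD lowered Cys1 by 1.1 in fed LKO mice (adjusted p = 1.11e-06), and in fed LWT mice its difference was −0.24 (adjusted p = 0.205). Onecut1, a transcription factor of early duct cells that hepatocytes also express, showed no genotype call and was lowered by the HFD in fed LWT mice, by 2.13 (adjusted p = 0.000955).

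The Notch and YAP pathways direct liver cells towards duct fate. Of their 16 genes 13 were kept, and in LKO mice none was called when fed on the CTRL diet and 1 was called lower in each of the other 3 comparisons, a share near that of all genes given above. Ctgf, a YAP target, was lower in fed HFD mice by 0.92 (adjusted p = 0.0293). Wwtr1, which encodes the YAP relative TAZ, was lower in fasted LKO mice by 0.71 on the CTRL diet (adjusted p = 4.5e-07) and by 0.69 on the HFD (adjusted p = 1.29e-06). The HFD raised 2 of the 13 genes in fed LWT mice, Ctgf by 0.98 (adjusted p = 0.0212) and the DNA-binding partner Tead1 by 0.63 (adjusted p = 0.000333), and none was called in fed LKO mice. Heyl, a Notch target, was lowered by fasting in LKO mice, by 0.73 on the CTRL diet (adjusted p = 2.84e-08) and by 0.61 on the HFD (adjusted p = 1.31e-05). Ctgf was raised by fasting on the CTRL diet, by 0.99 in LWT (adjusted p = 0.0159) and 0.89 in LKO mice (adjusted p = 0.0315), and by 0.94 in LKO mice on the HFD (adjusted p = 0.0462).

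Mesothelial genes, which accompany Krt7 and Krt19 in the liver capsule, were called in 1 comparison of genotype: Wt1 was lower in fasted HFD LKO mice (−0.87, adjusted p = 0.0404). The summed log2 signal of the 3 mesothelial genes kept of 4 ran from 8.18 to 9.88 in fed HFD LWT and from 7.29 to 8.72 in fed HFD LKO mice, and from 7.20 to 9.93 and 6.98 to 8.12 in fasted HFD mice. Their part in the keratin differences was not tested. Of 6 hepatocyte genes, Cps1 alone was called higher in LKO mice, in 3 of 4 comparisons, and their summed log2 signal stayed between 20.33 and 20.44 in all 8 groups. Of 5 endothelial genes, Lyve1 of the sinusoids was called lower in fed LKO mice on the CTRL diet (−1.13, adjusted p = 0.000238) and the HFD (−0.82, adjusted p = 0.00431), and Clec4g, another sinusoidal gene, was called higher in fasted HFD LKO mice (0.68, adjusted p = 0.000248), where the median of the 5 was 0.41. Of 5 pancreatic acinar genes, which would show pancreas carried along with the ducts, Cpa1, Pnlip and Prss2 were not kept, with at most 1 array well above background. Cela1 was called lower in fasted CTRL-diet LKO mice (−0.89, adjusted p = 2.37e-05).

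**Figure D4:**
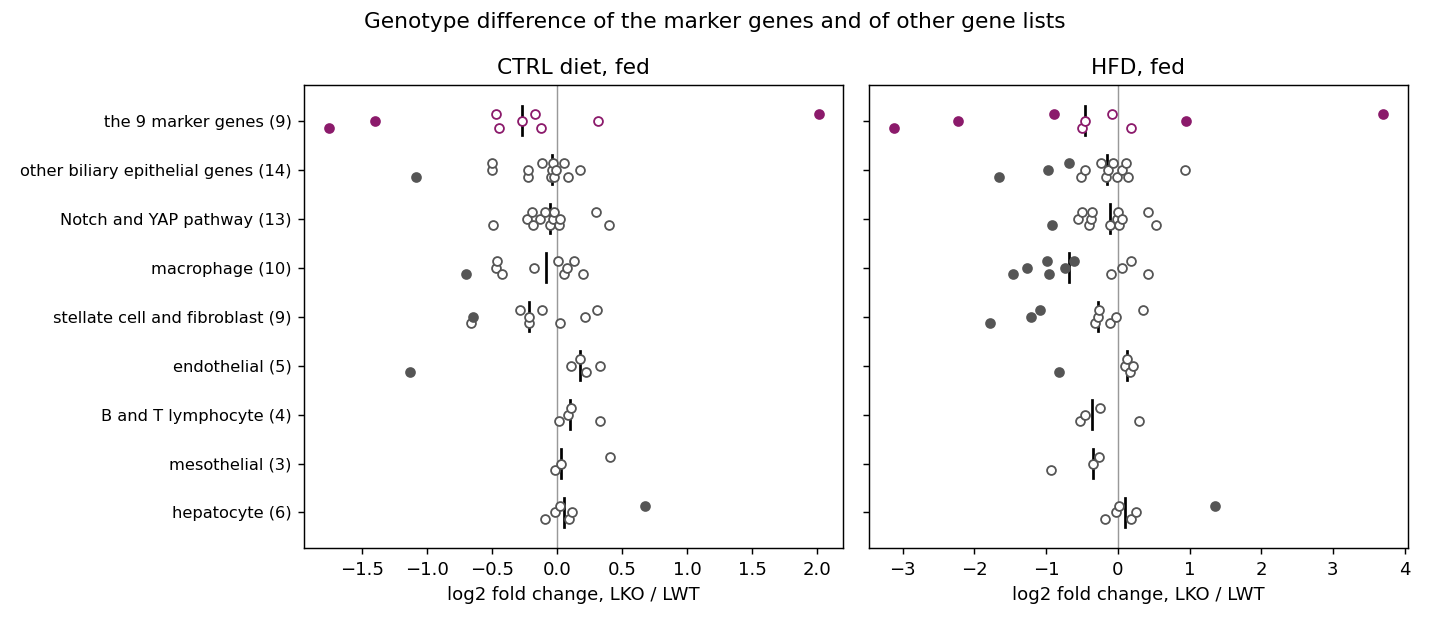
Log2 fold change of LKO over LWT in fed mice on the CTRL diet (left) and the HFD (right) for the 9 marker genes and for the genes kept of 8 other lists, with the number of genes in brackets; filled circles were called and vertical bars are list medians. On the HFD, 6 of 10 macrophage genes and 3 of 9 stellate cell and fibroblast genes are called lower, against 1 of each on the CTRL diet. Spp1 lies at −1.76 and −2.22 and Tff3 at 2.01 and 3.71.

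Over the 48 arrays, which share the 8 groups, the marker genes were correlated with each other to very different degrees. Krt7 and Krt19 had r = 0.819, and r = 0.619 after the group means were taken out. Spp1 and Epcam had r = 0.818, and 0.248 without the group means, and Spp1 and Ly6d had 0.757 and 0.486. Tff3 ran against Spp1, with r = −0.782, and this was −0.00786 without the group means. The 3 genes most like Spp1 were Lgals1 (r = 0.942), Atox1 (0.938) and Samd9l (0.928), and those most like Ly6d were Acyp2 (0.903), Gm13056 (0.89) and Haus8 (0.889). Tff3 was most like Apom (0.924), Gm5779 (0.879) and Pdia5 (0.861), and Krt19 most like Cryab (0.876), S100a6 (0.87) and Mrgprf (0.864). Krt7 followed Krt19 first, then Myl7 (0.808) and Sulf1 (0.791), and Epcam followed Scara3 (0.87). The best correlations of Krt23 were lower, with Dpys (0.797), Ackr2 (0.781) and Cabp4 (0.779), and Sox9 had none above 0.57. These values are descriptions across arrays, in which genes that respond to the same diet or genotype correlate.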

How the data were processed

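Liver RNA of 48 mice was hybridised to one-colour (Cy3) Agilent SurePrint G3 Mouse 8x60K arrays. Per the labels, 1 array per mouse was read with Agilent Feature Extraction 10.10.1.1, and the deposited scanner files hold raw intensity of each spot and of its local background. The authors also deposited log2 values, made from the median signal after a filter, correction for the washing bath and quantile normalization. Those log2 values correlated with the values used here at r = 1 on each array, over 30762 shared probes, and served as an alternative. Here the median signal was taken to log2, spots flagged as outliers were left out, spots of a probe were averaged, and probes well above background on at least 5 of 6 arrays of a group were kept (30793 of 56605). The washing batch was removed with group means protected and arrays were quantile normalized. One model over the 8 groups was fitted with limma 3.58.1 in R 4.3.3, with array weights, so fold changes need not equal the differences between plain group means. P-values were adjusted by the Benjamini-Hochberg method over all probes kept. Each gene is its brightest probe on average. Fold changes are log2 differences with their standard error. The number of arrays, 6 per group, limits the precision. The marker genes and lists were chosen with earlier results of these data known. Of the lists, up to 4 called genes each were named, by the size of their change, and for each marker gene the 3 genes of highest Pearson r. The macrophage list and the stellate cell and fibroblast list were given as counts, medians and sums, without gene names. The fit was tested on simulated data.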

Additional observations from a re-analysis of the deposited data

Results flagged for a closer look

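In 3 of the 72 sets of a gene and a group, 1 mouse stood apart from the other 5 by a gap above Dixon's 95% critical value, which chance gives in about 1 in 20 sets. Krt19 was highest in fasted HFD LWT replicate 2, at 7.18 against 6.63 for the next mouse (0.661 of the range). Krt23 was lowest in fed CTRL-diet LKO replicate 2, at 7.67 against 8.64 (0.632). Sox9 was lowest in fasted HFD LWT replicate 1, at 6.97 against 7.33 (0.637).

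In 5 cases a response differed between groups by the test of the difference itself in limma. The response of Ly6d to the HFD in fasted mice differed between genotypes by −2.55, and that of Krt23 by 1.83 in the other direction. The fasting response of Krt23 differed between diets by −2.44 in LWT mice, and that of Ly6d by −2.02 in LKO mice. The response of Sox9 to the HFD in fed mice differed between genotypes by 0.63.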

How the results depend on the processing

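Of 40 calls of the 9 genes, 19 held under each alternative and with each array left out, 21 were lost under at least 1 alternative, 8 were lost without at least 1 array, and none changed sign. Without single arrays the calls numbered 9 to 11 for diet, 15 to 16 for genotype, 7 to 11 for fasting and 4 to 6 for the interactions. Within washing batch 2 alone diet gave 5 calls. The interactions gave 0 calls in batch 1 alone (18 of 54 at an unadjusted p under 0.05) and 1 in batch 2 alone (7). By adjusted p alone fasting gave 14 calls and genotype 24, those of Krt7 and Epcam included. With signals processed by the scanner software and scaled to the 75th percentile, genotype gave 23 calls, those added being of Krt7 and Epcam. Outside the single batches, normexp background correction lost the Krt19 calls of genotype in fasted mice and the Cd24a call, leaving out the filter or the array weights lost the Tff3 diet call in fasted LWT mice, and the same omissions, median scaling or no washing batch correction lost the Spp1 fasting call in LWT mice on the CTRL diet. The Sox9 call was lost under 10 of 15 alternatives. Without the 2 arrays nearer to another group, a setting chosen after the data were seen, the counts were 10, 16, 11 and 6. Replicate numbers did not pair the mice, since 39 of 168 same-numbered pairs had r over 0.1 and 9 of 48 arrays were closest to their own number. With the replicate block the calls numbered 10 for diet, 16 for genotype, 10 for fasting and 5 for the interactions, and the Sox9 call was lost. Signal near background limits Krt7, Epcam and, in fasted CTRL-diet LKO mice, Krt19.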
